A study of Mus musculus with 16 samples.

Results

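Nfkb2, Rel, Relb, Rela, Nfkbia, Nfkbie, Nfkbiz, Tnfaip3 and Bcl3 were followed in mouse bone-marrow derived macrophages treated with interferon-gamma. They were chosen as the genes of the NF-kB subunits and of the inhibitors that act on them. Of 10 genes named by this rule 9 were measured, each by 1 array feature, out of 19938 genes in all, and Nfkb1 was not matched to a feature and is not analysed here. All cells came from mice whose histone H3.3 carried an HA tag by knock-in, and L-cell conditioned medium was used to grow the macrophages. Pretreated cells, whose titles add a token for previous interferon, gave 4 arrays at 0 h, 2 at 3 h and 2 at 6 h. Naive cells gave the same numbers. Nothing used here states how much interferon the pretreatment used, how long it lasted or whether a rest followed. No cells were kept unstimulated to 3 h or 6 h among the labelled groups, so time in culture and stimulation cannot be told apart in a change from 0 h. The 16 arrays formed 2 sets of 8, with 2 arrays per group in each: set 1 held 0 h and 6 h, and set 2 held 0 h and 3 h. Since separate cultures or mice are not named for the replicates, the p-values measure variation among these arrays alone, and this may be technical.

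NF-kB transcription factors are dimers of Rel-family proteins that IkB proteins hold in the cytoplasm. When a receptor for a microbial product or for a cytokine such as TNF signals, the IKK kinases mark IkB for destruction, the dimers enter the nucleus and switch on inflammatory genes. Among the genes they switch on are those of their own inhibitors, which ends the signal. Interferon-gamma itself signals mainly through a different route, that of the JAK kinases, and in macrophages many inflammatory promoters take input from both routes. Rela encodes the subunit of the classical dimer and Rel its lymphoid and myeloid relative. Relb and Nfkb2 encode the subunits of the alternative pathway, Nfkb2 as a precursor that is itself inhibitory. Nfkbia and Nfkbie encode the cytoplasmic inhibitors IkB-alpha and IkB-epsilon. Bcl3 and Nfkbiz encode nuclear IkB proteins that bind DNA-bound subunits and can raise as well as repress transcription. Tnfaip3 encodes A20, a ubiquitin-editing enzyme that shuts off signalling upstream of IKK.

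The stretch before the start site is shown for 3 inhibitors that rose in naive cells and hold a kB match (Nfkbia, Nfkbie and Tnfaip3) and for Rel, which holds a match and passed no test. Bcl3 passed in more comparisons than Nfkbia or Nfkbie, and its window, which is not printed, held no match. Each is the 250 bases before a RefSeq start in GRCm38.p6, read 5′ to 3′ on the strand of the gene, with matches to the kB decamer consensus in capitals.
Nfkbia, chr12:55492648-55492897, minus strand: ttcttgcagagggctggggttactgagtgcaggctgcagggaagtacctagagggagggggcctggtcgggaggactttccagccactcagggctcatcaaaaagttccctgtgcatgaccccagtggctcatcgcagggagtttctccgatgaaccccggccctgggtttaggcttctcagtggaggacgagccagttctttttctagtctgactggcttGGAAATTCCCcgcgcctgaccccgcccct
Nfkbie, chr17:45555450-45555699, plus strand: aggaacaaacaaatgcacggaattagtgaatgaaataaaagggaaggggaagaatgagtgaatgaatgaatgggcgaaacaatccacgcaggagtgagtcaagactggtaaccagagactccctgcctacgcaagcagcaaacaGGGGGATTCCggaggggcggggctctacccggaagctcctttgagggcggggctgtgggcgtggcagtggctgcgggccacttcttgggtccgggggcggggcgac
Tnfaip3, chr10:19015411-19015660, minus strand: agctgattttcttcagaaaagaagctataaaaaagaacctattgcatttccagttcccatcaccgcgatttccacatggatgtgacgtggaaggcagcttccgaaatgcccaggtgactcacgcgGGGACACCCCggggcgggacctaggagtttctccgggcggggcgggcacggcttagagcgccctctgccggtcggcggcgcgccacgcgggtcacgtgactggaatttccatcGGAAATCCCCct
Rel, chr11:23770970-23771219, minus strand: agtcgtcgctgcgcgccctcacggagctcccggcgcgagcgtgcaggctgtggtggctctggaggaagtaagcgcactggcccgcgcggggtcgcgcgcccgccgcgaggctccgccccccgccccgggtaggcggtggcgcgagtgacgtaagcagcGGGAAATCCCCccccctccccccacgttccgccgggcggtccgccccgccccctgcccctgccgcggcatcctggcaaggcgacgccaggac
Nfkbia held 1 match, GGAAATTCCC, at -29 to -20 from the start. Nfkbie held 1, GGGGGATTCC, at -106 to -97. Tnfaip3 held 2, GGGACACCCC at -125 to -116 and GGAAATCCCC at -12 to -3, and a second Tnfaip3 start held none. Rel held 2 overlapping matches, GGGAAATCCC and GGAAATCCCC, which cover 1 site. Nfkb2 held matches before each of its 3 starts, while the windows of Rela and Bcl3 held none. Over all 32851 windows of the same length, searched on both strands, 7.25% held a match to this consensus. Relb and Nfkbiz had no RefSeq promoter entry and were not searched for any motif. The gamma-activated site TTCNNNGAA was in 7.02% of the windows and among the searched members only before 1 start of Nfkb2, as TTCCCCGAA. The interferon-stimulated response element core was in 2.98% of the windows and in none of those of the searched members. A match describes letters in this window and is not a bound site.

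The cells carried the macrophage markers of their label: all 10 measured markers had mean log2 intensities of 9.05 or more, with Lyz2 at 13.8. A mean under 6.5 was taken as not shown to be above background. Of the 38 measured markers of other cells, 20 had means under 6.5, among them Cd79a, Ms4a1, Cd3d, Ncr1, S100a8, Ly6g and Flt3. The others had means of 6.5 or more: Cd79b and Pax5 (B cell), Cd3e and Cd8a (T cell), Elane, Mpo and Camp (neutrophil or progenitor). So had the stromal Col1a1 (7.87), Col1a2 and Col3a1, the dendritic Zbtb46, Xcr1, Clec9a and Siglech, and Epor, Itga2b, Pf4 and Gp9. The highest were Pf4, a platelet chemokine that macrophages also make, at 11.3, and Cd79b at 8.83. Of the 10 macrophage markers, 2 rose (Fcgr1 and Spi1) and 1 fell (Cd14, -1.06 ± 0.23, log2 and SE) from 0 h to 6 h in pretreated cells, and 2 rose (the same ones) and 2 fell (Cd14, -0.87 ± 0.23, and Cebpa, -1.31 ± 0.40) in naive cells. Of the 6 dendritic-cell markers, 1 rose in pretreated cells at 6 h (Clec9a, 3.62 ± 0.39, limma adjusted p = 0.000201) and 2 in naive cells (Clec9a, 4.44 ± 0.39, adjusted p = 9.87e-06, and Xcr1, 1.10 ± 0.28, adjusted p = 0.0153). Flt3, Zbtb46, Siglech and Cd209a did not pass. At 6 h 2.89% of all genes rose and 2.76% fell in pretreated cells, and 7.48% rose and 10.8% fell in naive cells. Clec9a was also higher in pretreated than in naive cells at 0 h (1.67 ± 0.28, adjusted p = 0.00921). The mean of the dendritic list lay between 6.12 and 7.48 over the groups, and the part of these markers in the results below was not tested. In such bulk RNA, fewer cells that express a gene and less RNA per cell cannot be told apart. All 9 genes had mean intensities above 6.5, from 8.73 for Relb to 11.6 for Rel, and intensities of different genes are not comparable. In the stimulated groups the members were higher on replicate 1 than on replicate 2 in 36 of 36 pairs (9 genes in 4 groups), by medians of 0.617 in pretreated and 0.620 in naive cells at 3 h, and of 0.228 in pretreated and 0.362 in naive cells at 6 h. Over all genes 45.2% to 60.9% were higher on replicate 1 in those pairs. Replicate numbers here follow sample order, since the titles give none. By the numbers in the titles, replicate 1 of these groups was array 3 or 4 of its set and replicate 2 array 7 or 8. The main fit has no term for this numbering, so this spread stands in every test below.

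**Figure D1:**
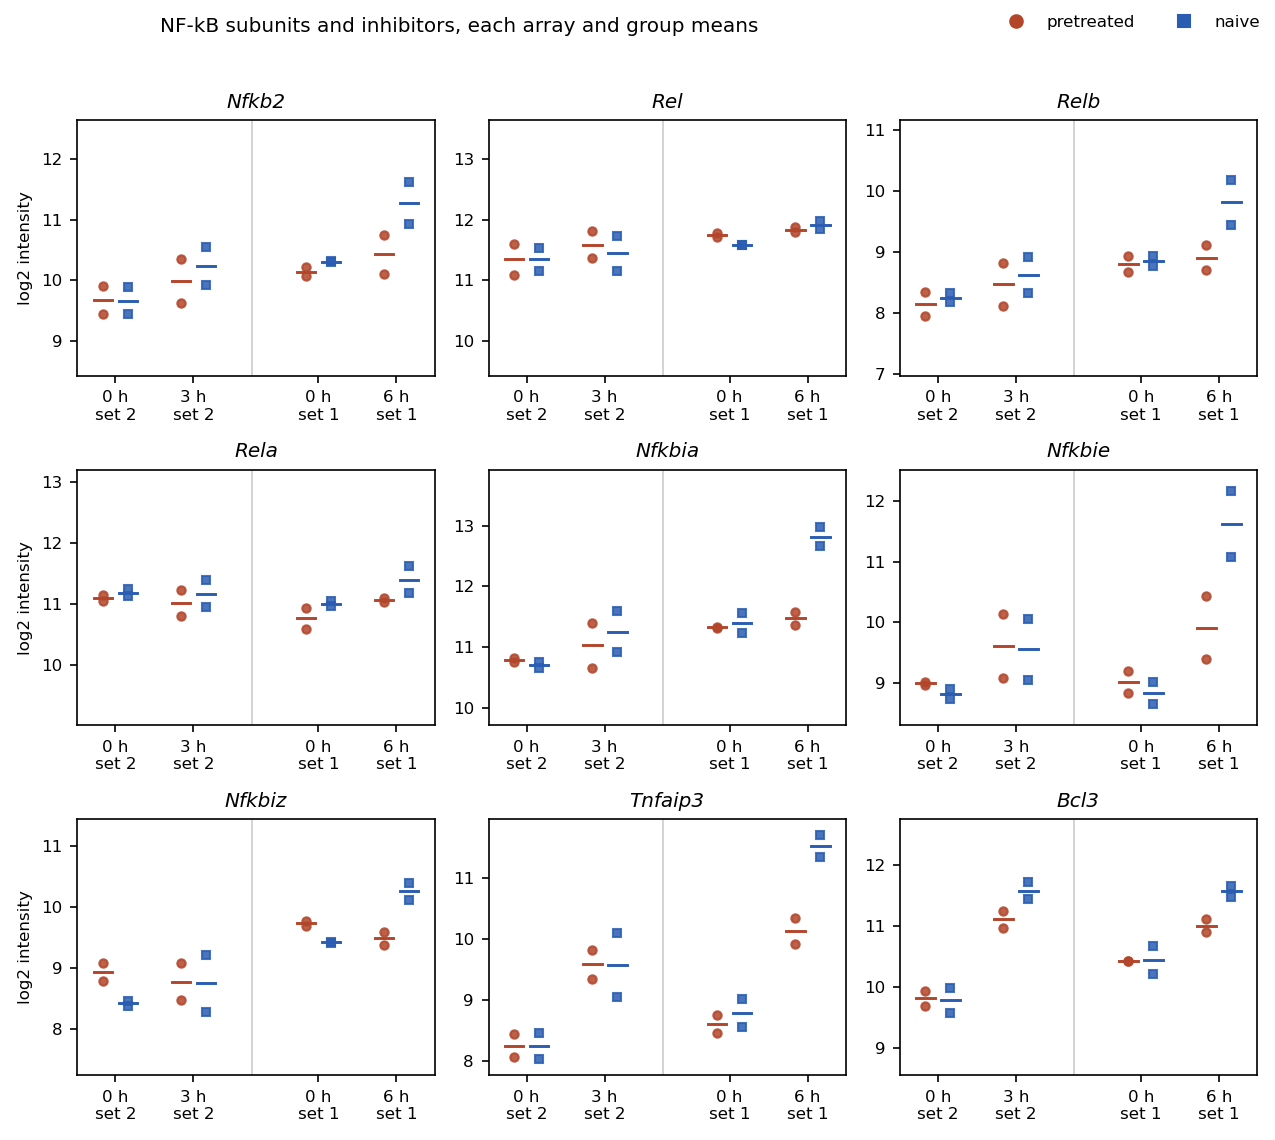
Log2 intensity (vertical axis, each panel spanning the same range) of 9 NF-kB genes on every array, with pretreated cells as circles left of naive cells as squares, by time and array set; horizontal bars are means of 2 arrays. At 6 h both naive squares of Nfkbia, Nfkbie and Tnfaip3 lie above both pretreated circles. At 3 h the circles and squares of these genes overlap, while those of Bcl3 do not.

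In naive cells at 6 h Nfkbie and Tnfaip3 had the largest log2 changes of the 9, and these did not differ beyond their errors. The Nfkbie log2 intensities were 12.15 and 11.08 in naive cells at 6 h, against 9.02 and 8.66 at 0 h in the same array set. Both 6 h arrays lay above both 0 h arrays, and the rise was 6.84-fold (log2 change 2.77 ± 0.44 SE, 95% interval 1.81 to 3.74, limma adjusted p = 0.000765). Tnfaip3 stood at 11.71 and 11.35 at 6 h, against 9.02 and 8.56 at 0 h, with no overlap and a rise of 6.68-fold (2.74 ± 0.32, adjusted p = 7.74e-05). Nfkbia stood at 12.97 and 12.66, against 11.56 and 11.24, a rise of 2.67-fold (1.42 ± 0.24, adjusted p = 0.00121). Bcl3 stood at 11.66 and 11.48, against 10.21 and 10.67, a rise of 2.19-fold (1.13 ± 0.19, adjusted p = 0.00103). These 4 rises held with any 1 of the 4 arrays left out and under all 12 other settings.

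Relb and Nfkbiz rose less and with less margin at 6 h. Relb was at 10.19 and 9.45 in naive cells at 6 h, against 8.76 and 8.94 at 0 h (0.96 ± 0.29, adjusted p = 0.0349). Nfkbiz was at 10.40 and 10.12, against 9.43 and 9.42 (0.84 ± 0.26, adjusted p = 0.0418). Both calls depended on single arrays: Relb lost it in 3 of the 4 cases (the highest adjusted p, 0.341, came from omitting naive 6 h replicate 1) and Nfkbiz in all 4 (0.256 from omitting the same array). Nfkb2, at 11.62 and 10.93 against 10.32 and 10.30, lay just outside the threshold (0.97 ± 0.31, adjusted p = 0.0503) and passed under 6 of 12 other settings. Rel (0.33 ± 0.22, adjusted p = 0.411) and Rela (0.39 ± 0.19, adjusted p = 0.216) did not pass, although both 6 h arrays of each lay above both 0 h arrays. In all, 6 of 9 members rose (4 to 8 under other settings, 4 to 6 with an array left out) and none fell. Of the 6, 5 were IkB-family or A20 genes (5 of 5 measured) and 1 encodes a subunit (Relb, of 4 measured). Over all genes 7.48% rose and 10.8% fell in this comparison. The median log2 change was 0.966 for the members and -0.015 for all genes, and all 9 members had 6 h arrays above their 0 h arrays, as did 24.9% of all genes, with 31.3% below.

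At 3 h Bcl3 and Tnfaip3 had risen in naive cells. Bcl3 stood at 11.73 and 11.44 at 3 h, against 9.98 and 9.58 at 0 h, a rise of 3.49-fold (1.80 ± 0.19, adjusted p = 6.74e-05) that held with any 1 array left out. Tnfaip3 stood at 10.10 and 9.04, against 8.46 and 8.03, a rise of 2.52-fold (1.33 ± 0.32, adjusted p = 0.0275). The 3 h arrays of Tnfaip3 were above those at 0 h but 1.06 apart, and the call was lost in 3 of the 4 fits that each omit 1 array (either naive 0 h array of set 2, or replicate 1 at 3 h, which gave the highest adjusted p, 0.261). Nfkbie was at 10.06 and 9.06, against 8.91 and 8.74 (0.73 ± 0.44, adjusted p = 0.524), and Nfkbia at 11.59 and 10.92, against 10.66 and 10.76 (0.55 ± 0.24, adjusted p = 0.293). Each had both 3 h arrays above the 0 h arrays, as had Nfkb2 (0.57 ± 0.31, adjusted p = 0.458). With Bcl3 and Tnfaip3 these made 5 members whose arrays lay wholly above and none wholly below, against 23.3% and 24.4% of all genes. Relb (0.37 ± 0.29), Nfkbiz (0.33 ± 0.26), Rel (0.10 ± 0.22) and Rela (-0.02 ± 0.19) overlapped and had adjusted p-values of 0.68 to 0.984. Thus 2 of 9 members rose and none fell, against 3.37% and 2.09% of all genes, and the members' median was 0.548.

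The response of naive cells was set against time as a difference of the changes, 6 h minus 3 h, in which time and array set cannot be told apart. It was positive for Nfkbie (2.04 ± 0.63, 95% interval 0.682 to 3.40, adjusted p = 0.143), Tnfaip3 (1.41 ± 0.45, adjusted p = 0.164) and Nfkbia (0.87 ± 0.34, adjusted p = 0.268). It was negative for Bcl3 (-0.67 ± 0.27, adjusted p = 0.276), whose log2 change was larger at 3 h than at 6 h. No member passed by limma's adjusted test, whereas 4 (these 4) had an unadjusted p under 0.05, as had 13.3% of all genes. By the adjusted test 0.682% of all genes passed upward and 1.05% downward.

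**Figure D2:**
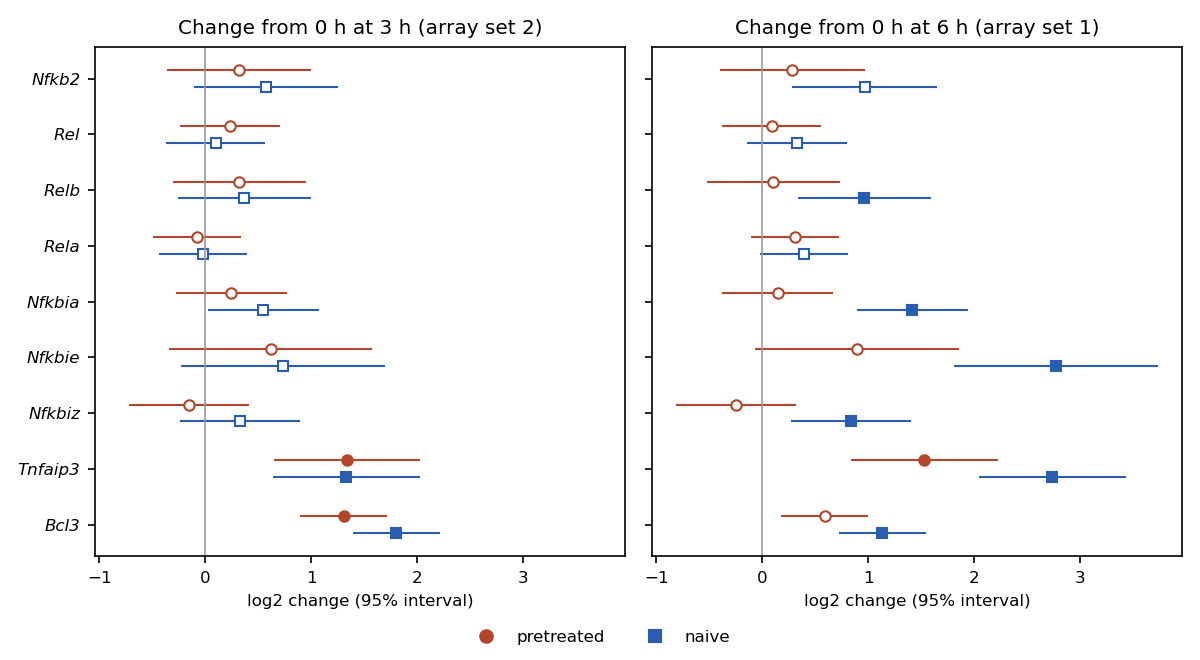
Log2 change from 0 h (horizontal axis, bars are 95% intervals) of each gene at 3 h and at 6 h, pretreated cells as circles above naive cells as squares; filled symbols passed an adjusted p under 0.05. At 3 h the filled symbols are Tnfaip3 and Bcl3 in both kinds of cell, and at 6 h they are 6 genes in naive cells and Tnfaip3 in pretreated cells.

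In pretreated cells stimulated for 3 h the same pair passed. Bcl3 stood at 11.26 and 10.98 at 3 h, against 9.94 and 9.68 at 0 h, a rise of 2.47-fold (1.31 ± 0.19, adjusted p = 0.00211). Tnfaip3 stood at 9.83 and 9.34, against 8.44 and 8.06, a rise of 2.53-fold (1.34 ± 0.32, adjusted p = 0.0437). Tnfaip3 passed in none of the 4 fits that each omit 1 array, the highest adjusted p being 0.334 without pretreated 0 h replicate 4. Nfkbie was at 10.15 and 9.09, against 8.97 and 9.03 (0.62 ± 0.44, adjusted p = 0.612), so its arrays did not overlap but 1 of them lay close to the 0 h level. Such a gap upward was seen for 3 members and downward for none, against 14.6% and 20.9% of all genes. The remaining 6 overlapped and lay between -0.15 (Nfkbiz) and 0.32 (Relb). Over all genes 1.86% rose and 0.998% fell, and the members' median was 0.316.

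In pretreated cells stimulated for 6 h only Tnfaip3 rose among the 9. It stood at 10.35 and 9.93 at 6 h, against 8.76 and 8.46 at 0 h, a rise of 2.89-fold (1.53 ± 0.32, adjusted p = 0.0131). The call was lost without pretreated 0 h replicate 2 or without pretreated 6 h replicate 1 (adjusted p up to 0.137). Nfkbie was at 10.43 and 9.40, against 9.20 and 8.84 (0.89 ± 0.44, adjusted p = 0.396), and Bcl3 at 11.12 and 10.90, against 10.42 and 10.42 (0.59 ± 0.19, adjusted p = 0.108). Nfkbia, at 11.58 and 11.36 against 11.31 and 11.34, moved by 0.15 ± 0.24 (95% interval -0.376 to 0.672, adjusted p = 0.943). Nfkbiz, at 9.59 and 9.39 against 9.70 and 9.77, was at -0.25 ± 0.26 (adjusted p = 0.86). The subunits lay between 0.09 (Rel) and 0.31 (Rela), with adjusted p-values of 0.572 to 0.978. The 6 h arrays lay wholly above those at 0 h for 6 members and wholly below for 1 (Nfkbiz), against 16.6% and 22.2% of all genes. The members' median was 0.286, and 2.89% of all genes rose and 2.76% fell. Between the 6 h and 3 h changes of pretreated cells no member passed the adjusted test. Only Bcl3 (-0.72 ± 0.27, adjusted p = 0.518) had an unadjusted p under 0.05, as had 7.31% of all genes, and 0.00502% passed the adjusted test upward and 0.015% downward.

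Before new stimulation the pretreated cells held these genes near the naive level. None of the 9 passed at 0 h with 4 against 4 arrays by limma's adjusted test, while 0.808% of all genes were higher and 0.155% lower. The differences lay between -0.17 (Rela) and 0.41 (Nfkbiz), and the widest 95% interval was that of Nfkbie, -0.501 to 0.858. Only Nfkbiz had an unadjusted p under 0.05, as had 7.87% of all genes, so 1 of 9 is near the background. Its intensities were 9.70 and 9.77 in pretreated cells, against 9.43 and 9.42 in naive cells of set 1, and 8.79 and 9.08, against 8.46 and 8.38, in set 2. The arrays did not overlap in either set, as was so for 4.26% of all genes upward and 4.11% downward, and the difference was 0.31 ± 0.26 in set 1 and 0.51 ± 0.26 in set 2 (0.41 ± 0.18 over both, adjusted p = 0.607). For Nfkbia the interval of the 0 h difference was -0.368 to 0.373 and for Bcl3 -0.282 to 0.297.

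After 3 h the levels of pretreated and naive cells were also close for most members. Tnfaip3 differed by 0.01 ± 0.32 (95% interval -0.680 to 0.703) and Nfkbie by 0.06 ± 0.44 (-0.902 to 1.02). Bcl3 was at 11.26 and 10.98 in pretreated cells, against 11.73 and 11.44 in naive cells, without overlap (14.6% of all genes lay wholly lower), but the difference of -0.47 ± 0.19 did not pass (adjusted p = 1). No member passed at 3 h by the adjusted limma test and 1, Bcl3, had an unadjusted p under 0.05, as had 3.7% of all genes. By the adjusted test 0.01% of all genes were higher and 0.00502% lower. The difference of the 3 h responses passed for none of the 9 and none had an unadjusted p under 0.05, with values between -0.50 (Bcl3) and 0.14 (Rel). No gene of all passed upward (0%) and 0.0802% passed downward.

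At 6 h Nfkbia was lower in pretreated than in naive cells. Its intensities were 11.58 and 11.36 in pretreated cells, against 12.97 and 12.66 in naive cells, 2.54-fold lower in pretreated cells (-1.34 ± 0.24, 95% interval -1.87 to -0.820, adjusted p = 0.0313). The call was lost without naive 6 h replicate 1 or without either pretreated 6 h array (adjusted p up to 0.311). Tnfaip3 was at 10.35 and 9.93, against 11.71 and 11.35 (-1.39 ± 0.32, adjusted p = 0.0738), and Nfkbie at 10.43 and 9.40, against 12.15 and 11.08 (-1.70 ± 0.44, 95% interval -2.66 to -0.738, adjusted p = 0.106). Neither passed, and the pretreated arrays of each lay wholly below the naive ones. Under 12 other settings Tnfaip3 passed in 3 and Nfkbie in 1, as did Relb and Nfkb2 in 1 each. Relb (-0.91 ± 0.29, adjusted p = 0.185), Nfkb2 (-0.85 ± 0.31, adjusted p = 0.26), Nfkbiz (-0.77 ± 0.26, adjusted p = 0.213) and Bcl3 (-0.56 ± 0.19, adjusted p = 0.211) also did not pass. Rel differed by -0.08 ± 0.22 and was the only member whose arrays overlapped. In all 1 of 9 members passed as lower and none as higher, against 0.271% and 0.431% of all genes. All 9 differences were negative, with a median of -0.847 against 0.023 for all genes, and in 8 of 9 the pretreated arrays lay below the naive arrays, as in 19% of all genes.

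Whether the 6 h response itself differed was tested as a difference of changes, pretreated minus naive. The difference was -1.88 ± 0.63 for Nfkbie (95% interval -3.24 to -0.521, adjusted p = 0.325), -1.27 ± 0.34 for Nfkbia (adjusted p = 0.219), -1.21 ± 0.45 for Tnfaip3 (adjusted p = 0.394) and -1.08 ± 0.37 for Nfkbiz (adjusted p = 0.334). These 4 had an unadjusted p under 0.05, as had 9.12% of all genes, and none of the 9 passed by limma's adjusted test. For the subunits the difference was -0.86 ± 0.41 for Relb, -0.68 ± 0.44 for Nfkb2, -0.24 ± 0.31 for Rel and -0.08 ± 0.27 for Rela. By the adjusted test 0.0301% of all genes passed upward and 0.115% downward. This difference and the levels at 6 h share the same naive and pretreated arrays, so they are not separate evidence.

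**Figure D3:**
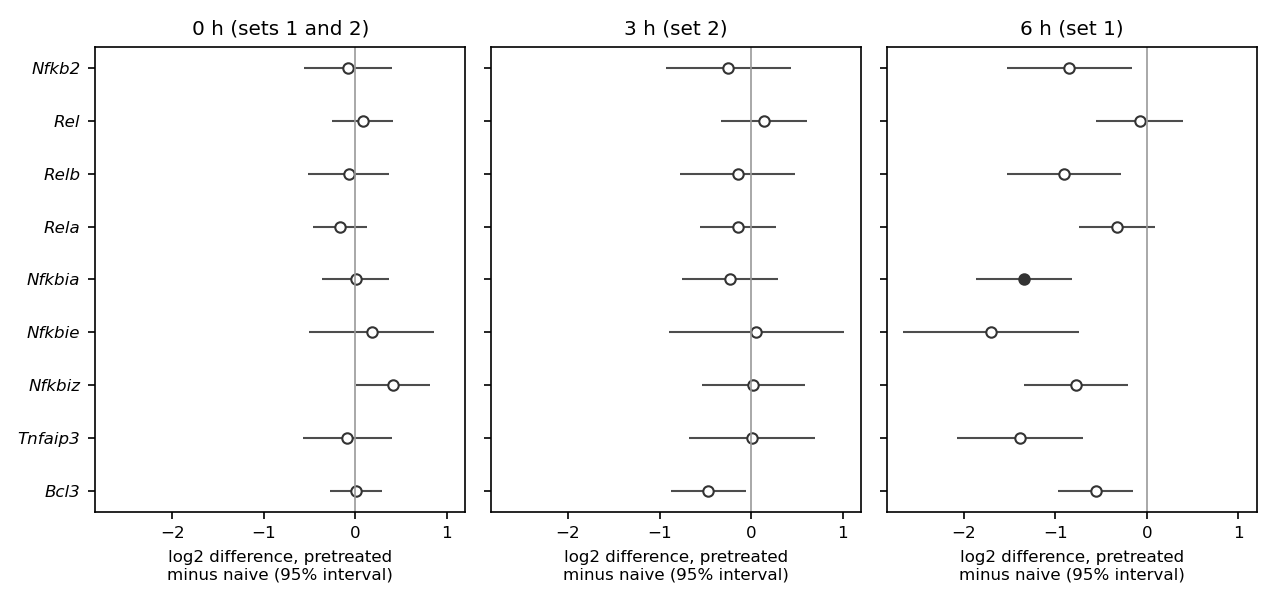
Log2 difference of pretreated minus naive cells (horizontal axis, bars are 95% intervals) of each gene at 0 h, 3 h and 6 h; a filled circle passed an adjusted p under 0.05. At 0 h and 3 h the points lie within 0.47 of zero, and at 6 h all 9 lie below zero, with Nfkbia filled.

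Across the 16 arrays, with the mean of each array set removed, the members rose and fell together to different degrees. Relb and Nfkb2 had the most alike profiles (Pearson r = 0.974), followed by Nfkbie with Tnfaip3 and Nfkbie with Nfkbia (0.933 each). The least alike were Rela with Bcl3 (0.385) and Nfkbiz with Bcl3 (0.397), and Rel had no r over 0.709 with any other member. These values describe 16 arrays that share groups, array sets and the difference between replicates given above, and carry no test.

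**Figure D4:**
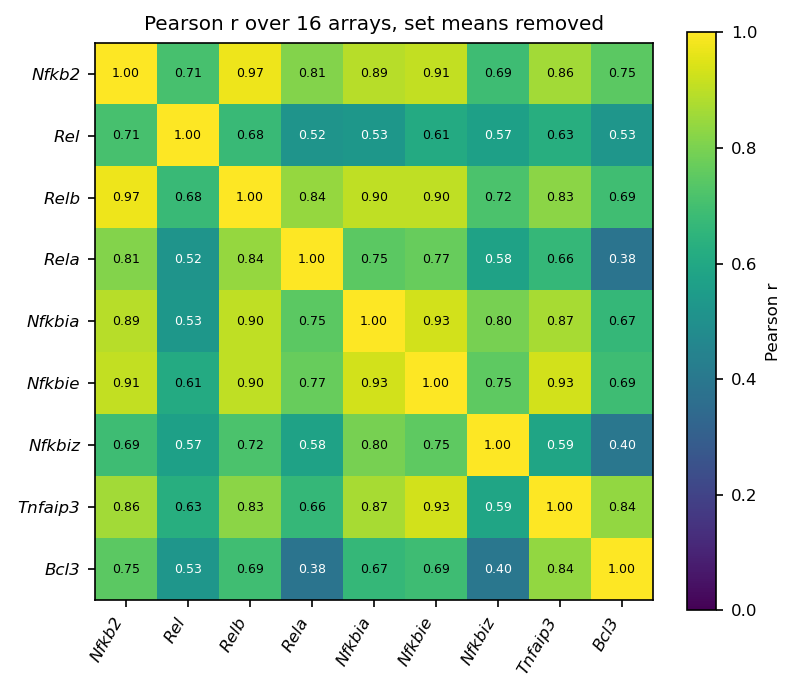
Pearson r between each pair of the 9 genes over 16 arrays after removing the mean of each array set, on a colour scale of 0 to 1 with the value printed in each square. The brightest square off the diagonal is Nfkb2 with Relb (0.97) and the darkest is Rela with Bcl3 (0.38).

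The rest of the pathway was read from lists written with earlier results of these data known. Of 23 measured genes of the IKK complex and of the steps above it, 9 rose and none fell in naive cells at 6 h, where 7.48% of all genes rose and 10.8% fell (median 0.238, against -0.015 for all genes). Traf1, a TNF receptor adaptor, rose by 2.11 ± 0.36, the paracaspase Malt1 by 1.48 ± 0.31, the ubiquitin ligase Birc2 by 1.48 ± 0.27 and Myd88, the adaptor of Toll-like receptors, by 1.22 ± 0.10 (adjusted p = 5.03e-06). At 3 h in naive cells, where 3.37% of all genes rose and 2.09% fell, 6 of 23 rose and none fell, with Malt1 at 1.18 ± 0.31 and Myd88 at 1.14 ± 0.10. In pretreated cells 2 of 23 rose at 3 h, Birc3 (0.83 ± 0.17) and Myd88 (0.78 ± 0.10), and 1 at 6 h, Myd88 (0.59 ± 0.10). Over all genes 1.86% rose at 3 h and 2.89% at 6 h in pretreated cells, so 1 of 23 is near the background. None of the 23 passed between pretreated and naive cells at 0 h, 3 h or 6 h by limma's adjusted test. The shares of all genes higher and lower there were 0.808% and 0.155% at 0 h, 0.01% and 0.00502% at 3 h, and 0.431% and 0.271% at 6 h. Of the 3 remaining IkB-family genes, Nfkbib, which encodes IkB-beta, rose in naive cells at 6 h (0.84 ± 0.15, adjusted p = 0.00173), while Nfkbid (0.52 ± 0.21, adjusted p = 0.116) and Nfkbil1 (-0.07 ± 0.13, adjusted p = 0.875) did not pass.

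Other regulators moved in both directions. Of 19 genes that edit ubiquitin chains or dampen receptor signals, 7 rose and 4 fell in naive cells at 6 h, against 7.48% and 10.8% of all genes. Tnip3, a partner of A20, rose by 2.40 ± 0.31, the interferon-induced protease Usp18 by 1.51 ± 0.34, N4bp1 by 1.02 ± 0.14 and Rnf31, the catalytic subunit of the linear ubiquitin ligase, by 0.86 ± 0.12. The 4 falls were Otulin (-0.82 ± 0.17), which cuts linear chains, Otud7b (-0.79 ± 0.11), a relative of A20, Tnfaip8l2 (-0.69 ± 0.18) and Irak3 (-0.55 ± 0.13), a brake on Toll-like receptor signalling. In naive cells at 3 h 5 rose and 1, Irak3, fell (-0.81 ± 0.13), against 3.37% and 2.09% of all genes. In pretreated cells 1 rose and 1 fell at 3 h, Rnf31 (0.75 ± 0.12) and Irak3 (-0.63 ± 0.13), and 3 rose and 2 fell at 6 h. The rises at 6 h were Sharpin, Rbck1 (0.55 ± 0.12) and Rnf31 (0.49 ± 0.12), and the falls Otud7b (-0.60 ± 0.11) and Irak3 (-0.57 ± 0.13). Over all genes 1.86% rose and 0.998% fell at 3 h, and 2.89% rose and 2.76% fell at 6 h, in pretreated cells.

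Of 48 measured genes known as NF-kB targets in macrophages, many of which interferon also induces, 24 rose and none fell in naive cells at 6 h, with a median of 1.20 against -0.015 for all genes, of which 7.48% rose and 10.8% fell. The prostaglandin synthase Ptgs2 rose by 5.65 ± 0.50, the chemokine Cxcl10 by 4.75 ± 0.28, the cytokine Tnf by 4.19 ± 0.65 and the costimulator Cd40 by 3.75 ± 0.32. Il1b (-0.73 ± 0.47, adjusted p = 0.393) and Il12b (0.73 ± 0.25, adjusted p = 0.06) did not pass. At 3 h in naive cells 13 rose and none fell (median 0.194, against 4e-04 for all genes), with Socs3 at 4.04 ± 0.21. Over all genes 3.37% rose and 2.09% fell at that time. In pretreated cells 11 rose and 1 fell at 3 h, and 9 rose and 1 fell at 6 h (median 0.293 against -0.0321 for all genes). The fall at both times was the neutrophil chemokine Cxcl2 (-1.68 ± 0.43 at 6 h, adjusted p = 0.038). In those cells 1.86% of all genes rose and 0.998% fell at 3 h, and 2.89% rose and 2.76% fell at 6 h. Thus 1 fall of 48 is near the background. Pretreated cells at 6 h had 6 of the 48 lower and none higher than naive cells: Cxcl2 (-2.38 ± 0.43), the lectin Clec4e (-2.36 ± 0.33), the feedback inhibitor Socs3 (-1.39 ± 0.21), Ier3 (-1.32 ± 0.20), the anti-apoptotic Cflar (-1.20 ± 0.21) and superoxide dismutase Sod2 (-0.86 ± 0.15), with adjusted p-values of 0.0129 to 0.0315. Over all genes 0.271% were lower and 0.431% higher there. Tnf did not pass there (-1.65 ± 0.65, adjusted p = 0.303). At 0 h 4 of the 48 were higher in pretreated cells, Ccl5 (2.64 ± 0.28), Cxcl10 (1.68 ± 0.20), Cd86 (1.47 ± 0.17) and the transcription factor Irf1 (1.11 ± 0.10), and none was lower, against 0.808% and 0.155% of all genes. None of the 48 passed between pretreated and naive cells at 3 h, where 0.01% of all genes were higher and 0.00502% lower. The difference of the 3 h responses passed for 1, Irf1 (-1.65 ± 0.21, adjusted p = 0.00822). Over all genes 0% passed upward and 0.0802% downward in that difference.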

How the data were processed

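RNA of 16 macrophage samples was biotin-labelled for Affymetrix mouse gene arrays, per the labels. The authors deposited log2 intensities; how they corrected background, normalized and summarised probes is not stated in the sources read. Array medians were 7.151 to 7.226 for set 1 and 6.886 to 6.997 for set 2, so contrasts stayed within a set. Sets follow the file numbers that the titles carry. Identical arrays were not found. For arrays their number limits the precision.

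Symbols came from the platform annotation: of 35557 features 21789 had 1 symbol, 1621 several and 12147 none, and 21698 matched RefSeq by gene ID. A gene with several features was read from the one with the highest mean. limma 3.58.1 in R 4.3.3 fitted a mean for every group and set (8 in all), leaving 8 residual degrees of freedom and adding 4.26 from the prior. Values after ± are SEs, and p-values carry the Benjamini-Hochberg adjustment over all 19938 genes, with a threshold of 0.05. The fit was tested on simulated data. Members and lists were chosen with earlier results of these data known. Named genes are the members, up to 4 passing genes of each list with the largest change in a comparison, the 3 genes most like each member, and marker genes. Further list genes (Il1b, Il12b, Tnf between groups, Nfkbid, Nfkbil1 and the full set of a small count) were named after their values were seen. Promoters were read from RefSeq (GRCm38.p6), with entries for 7 of the 9 genes (not for Relb or Nfkbiz). Alternatives were other set terms, scalings, filters and weights, a block, and leaving out each array.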

Additional observations from a re-analysis of the deposited data

How the results depend on the processing

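No member that passed changed sign under any other setting run or with an array left out. Of 99 pairs of member and comparison 12 passed, and 42 pairs that did not pass changed sign under at least 1 setting. The cause of the changed counts was not tested, and the shares of all genes that passed under the other settings are not given. The number of members that passed in naive cells at 3 h (2) was 1 without an array set term, with array set 2 alone and with every feature tested on its own, and 1 to 2 with an array left out. In pretreated cells at 3 h (2) it was 0 without an array set term and 1 with set 2 alone, with every feature, with each array centred on its median, with array weights and with any array left out. In pretreated cells at 6 h (1) it was 0 to 1 with an array left out. Set against naive cells at 6 h (1), the pretreated count was 2 with an additive set term and with array weights, 0 without a set term and with every feature, and 0 to 2 with an array left out. For the difference of 6 h responses (0) it was 1 with an additive set term. For naive cells, 6 h minus 3 h (0), it was 2 with an additive set term, 3 without one, and 0 to 1 with an array left out. Without a set term the median of all genes moved by up to 0.374.

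The titles number the arrays of each set 1 to 8, in the same group order from 1 to 4 and from 5 to 8, and give no replicate numbers. Deviations of arrays on the same side, numbers 1 to 4 or 5 to 8, correlated at 0.0821 to 0.662 over genes, with 1 of 12 pairs under 0.1, so the rule for pairing, every pair over 0.1, was missed by 1 pair. With the side as a replicate block, the members that passed were 3 in naive cells at 3 h (Nfkb2 gained, adjusted p = 0.0451), 8 in naive cells at 6 h (Nfkb2, 0.000823, and Rel, 0.0315, gained), 2 in pretreated cells at 6 h, 5 between pretreated and naive cells at that time (all lower), 3 for the difference of 6 h responses and 2 for naive cells, 6 h minus 3 h. In that fit Nfkbia, Nfkbie and Tnfaip3 passed for the difference of 6 h responses, with adjusted p-values of 0.0491, 0.0374 and 0.021. The share of all genes that passed in the block fit is not given here. These counts therefore cannot be set against a background.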

Other observations

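Genes with the most alike profile to each member were looked up among 13108 genes with a mean log2 intensity of 6.5 or more, by Pearson r over 16 arrays after removing the mean of each array set. Nfkbie was most like Traf2 (r = 0.963), an adaptor of TNF receptors. Relb followed Nfkb2 (0.974) and then the feature annotated to Mir155 (0.916). Bcl3 was most like Tceanc2 (0.972) and Socs3 (0.971). Tnfaip3 was most like Crkl (0.971) and Klf6 (0.966), Nfkbia like Paf1 (0.944) and Rela like Mllt6 (0.930). For Rel (Cd200r4, 0.864) and Nfkbiz (the feature annotated to Mir221, 0.839) the nearest gene was less alike. The arrays share groups, sets and replicate differences, so these values describe likeness only.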
